A study of Mus musculus with 6 samples.

Results

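The genes described here are 31 neighbours in the distal zinc-finger clusters of mouse chromosome 4, of 17110 genes in the study's comparison. They were chosen from an earlier reading of the same comparison as 3 blocks of consecutive genes that all had positive, significant fold changes, so the fold changes that follow are a description of the members and are not tested again. Mouse embryonic stem cells of the line TG2A, grown in serum and leukemia inhibitory factor, carried a fluorescent reporter under MERVL, an endogenous retrovirus active in the early embryo. Every sample carried the reporter, and the cells were sorted into a DsRed2+ and a DsRed2- group with 3 samples each, collected on different dates. Whether the line is a single clone is not given in the sources used here.

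KRAB zinc-finger proteins bind DNA through arrays of C2H2 zinc fingers, and their KRAB domain recruits the co-repressor TRIM28 (KAP1), which in turn brings the histone methyltransferase SETDB1 and H3K9 methylation. In embryonic stem cells this system silences endogenous retroviruses and other transposable elements. The genes lie in clusters that grow by duplication, and the clusters on distal chromosome 4 expanded recently in the mouse lineage, so neighbouring genes can be nearly identical.

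The authors' deposited table gives 1 mean, 1 fold change and 1 standard error per gene and no value per sample. It names neither the groups nor the numerator of the fold change, so a positive value is positive as deposited and is not assigned to DsRed2+ or DsRed2- cells. Values per library and depth per library were not analysed here, since the count columns could not be matched to samples. With no sample values, whether the samples of the groups overlap is not known for any gene below.

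The labelled cell type was checked against its markers: 7 of 8 embryonic stem cell markers had a row, with mean normalized counts from 2822 to 38163 in the authors' deposited table. Of these 7, 5 were called positive and 0 negative by the authors' deposited table, around a median of 0.73, with Dppa5a at 1.29 (SE 0.15) and Zfp42 at 1.10 (SE 0.092). Among other lists, 4 of the 5 fibroblast markers with a row were called negative in the authors' deposited table, around a median of -2.54. Thy1, the other fibroblast marker, was not called, at 0.34 (SE 0.43). The same table called 4 of the 5 trophectoderm markers with a row negative, around a median of -4.39 on the log2 scale. Of 4 primitive endoderm markers with a row, it called 1 negative and left 3 not called, around a median of -0.98. Over all genes, 14.6% were called positive and 15.9% negative. Of 9 two-cell markers only Calcoco2 had a row used here, at 3.10 (SE 0.14) in the authors' deposited table, and the others were not analysed here. The part of these shifts in the members' values was not tested. In a bulk sample, fewer cells of a type and less RNA per cell cannot be told apart.

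The sequences come first, since they show what the zinc-finger members share and where they differ. RefSeq's table of promoters (GRCm38.p6) matched 12 of the 31 members by name or gene ID, and 10 of these are zinc-finger genes. Their windows of 250 bases before the start site were 62.5% to 99.2% identical over 45 pairs, with a median of 74.5%. For comparison, the window of Tnfrsf8, the neighbouring receptor gene, was 39.5% to 46.1% identical to the others of the region. All 10 zinc-finger windows held a stretch of 83 bases with the same ends and no gap, which closes 24 to 69 bases before the RefSeq start site. The stretches are given 5′ to 3′ on the strand of the gene, with capitals marking the part where a CCAAT box read on the opposite strand (ATTGG) runs into a GC box (GGGCGG), and with positions in GRCm38.p6. The study's own build is GRCm39, and only names were joined.
Zfp268, chr4:145585060-145585142, plus strand: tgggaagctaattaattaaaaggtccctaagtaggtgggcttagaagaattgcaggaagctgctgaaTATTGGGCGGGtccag
Zfp980, chr4:145670556-145670638, plus strand: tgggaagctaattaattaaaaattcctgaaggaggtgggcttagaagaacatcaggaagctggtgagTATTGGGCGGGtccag
Zfp987, chr4:146097161-146097243, plus strand: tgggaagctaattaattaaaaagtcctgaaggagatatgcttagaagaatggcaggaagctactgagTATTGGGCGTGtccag
Zfp600, chr4:146156692-146156774, plus strand: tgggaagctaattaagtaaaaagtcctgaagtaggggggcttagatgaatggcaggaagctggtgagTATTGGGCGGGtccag
Rex2, chr4:147021715-147021797, plus strand: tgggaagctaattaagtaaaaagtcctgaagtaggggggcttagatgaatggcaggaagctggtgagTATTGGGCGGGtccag
Zfp988, chr4:147305490-147305572, plus strand: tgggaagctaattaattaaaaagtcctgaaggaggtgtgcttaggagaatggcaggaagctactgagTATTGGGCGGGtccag
Zfp982, chr4:147492266-147492348, plus strand: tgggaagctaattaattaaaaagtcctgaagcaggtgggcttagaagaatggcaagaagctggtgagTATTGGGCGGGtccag
Zfp985, chr4:147553141-147553223, plus strand: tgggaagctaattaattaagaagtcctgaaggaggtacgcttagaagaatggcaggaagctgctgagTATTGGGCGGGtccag
Zfp979, chr4:147642567-147642649, minus strand: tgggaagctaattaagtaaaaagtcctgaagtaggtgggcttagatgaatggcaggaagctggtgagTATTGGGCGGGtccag
Zfp534, chr4:147702655-147702737, minus strand: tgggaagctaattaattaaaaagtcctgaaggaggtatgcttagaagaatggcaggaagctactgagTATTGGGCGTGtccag

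Zfp600 and Rex2 differed at 0 positions of this stretch, and Zfp979 differed from Rex2 at 1. The other 7 differed from Rex2 at 5 to 10 positions. Zfp987 and Zfp534 carry G77T against Rex2, counted from 1 at the 5′ end of the stretch, and that substitution breaks the GC box. Zfp984, the zinc-finger gene just beyond the last member, has the stretch too, with 9 differences from Rex2: chr4:147809860-147809942, minus strand, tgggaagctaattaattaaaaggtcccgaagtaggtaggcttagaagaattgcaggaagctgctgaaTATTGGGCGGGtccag.

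Searched on both strands, the 15 letters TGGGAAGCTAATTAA, the longest run found in all 10 zinc-finger windows, were in 12 of all 32851 RefSeq windows of this length (0.0365%). These 12 belonged to the 10 members, to Zfp981, which lies between the blocks, and to Zfp984. The 16 letters TATTGGGCGGGTCCAG, which overlap the searched boxes, were in 9 windows (0.0274%), those of 8 members and Zfp984. AATCAATCA, a repeated unit further upstream, was in 9 of the 10 zinc-finger windows and in 0.216% of all windows. The short boxes within the capitals are common: ATTGG was in 33.9% and GGGCGG in 32.7% of all windows. CACGTG and TTTCCCGC were each in 0 of the 10 zinc-finger windows, against 6.02% and 0.895% of all windows. A match describes the letters only, and the letters were chosen after the windows had been read. RefSeq and GENCODE place the start of Zfp981 12893 bases apart, so its window may not be the start used here, and it was kept as an exception to a limit of 100 bases.

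The coding sequences divide the 16 coding members with a KRAB box. In GENCODE M21 (GRCm38), Rex2, Zfp600, Zfp978, Zfp979 and Zfp980 open with the same 45 coding bases ahead of a second start codon, and they differ from Rex2 at 0 of these 45. The other 11 begin at the position of that second start codon. The first coding bases of Rex2 and of Zfp987, for the longer and the shorter kind, are shown with the shared start codon in capitals.
Rex2: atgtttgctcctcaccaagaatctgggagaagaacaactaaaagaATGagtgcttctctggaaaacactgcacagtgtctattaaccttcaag
Zfp987: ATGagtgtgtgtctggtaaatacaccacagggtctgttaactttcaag

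With 0.05 as the limit on the adjusted p-value, all 31 members were called positive by the authors' deposited table, as were 14.6% of all 17110 genes. The rule that chose them fixes that count, so nothing is read from it. The authors' own mark, which also asks for a log2 fold change over 0.5, called all 31 up, and 9.4% of the whole of the authors' deposited table. A log2 fold change over 1 was reached by 29 members and, with the same limit on the adjusted p-value, by 5.59% of the rows of the authors' deposited table. By the authors' deposited table, the members' median was 2.22 and that of all genes 0.0097 on the log2 scale. The members ran from 0.65 to 5.09 with standard errors from 0.11 to 1.24 in the authors' deposited table. The 3 blocks hold 6, 8 and 17 members, with medians of 2.56, 1.91 and 2.41 by the authors' deposited table. The rule fixes the spread among members in part, since it shut out values that were small for their standard error. Members with low counts and wide standard errors could enter only with large values. With that limit, the spread is described by class next.

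**Figure D1:**
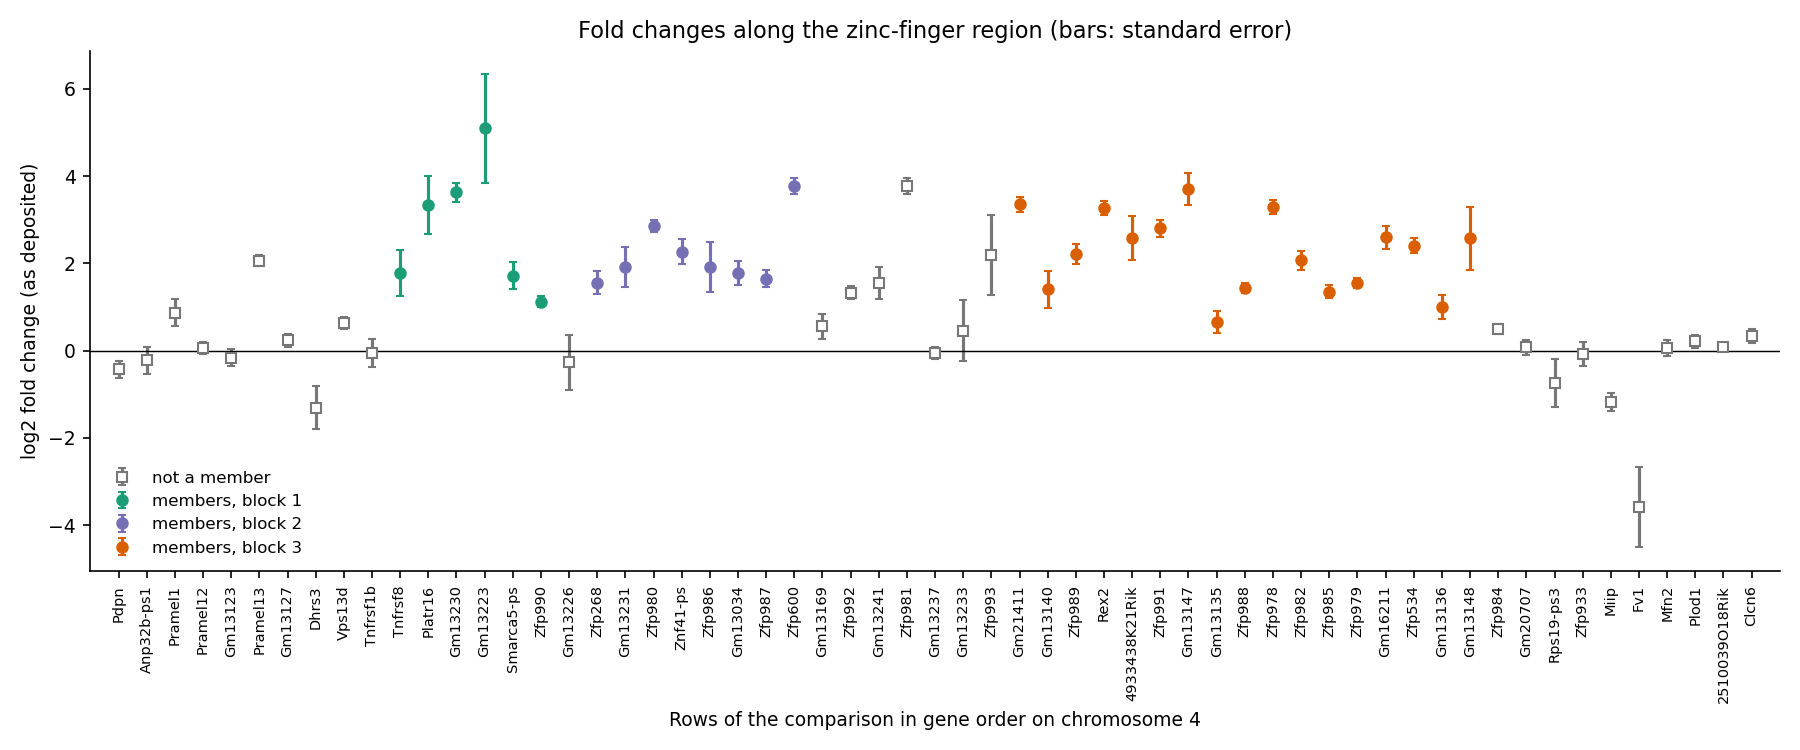
Log2 fold change as deposited (y axis) for the rows of the comparison in gene order (x axis), with bars for the standard error. Filled circles are the members in their 3 blocks and open squares are other genes. Among the open squares, Zfp981 lies at 3.77 between the blocks, Pramel13 at 2.06 before them and Fv1 at -3.59 after them.

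The 5 genes with the longer coding start ran from 1.55 to 3.77 on the log2 scale of the authors' deposited table. Rex2 (ENSMUSG00000067919), a KRAB zinc-finger gene, had a mean normalized count of 1523 and stood at 3.27 (SE 0.15, adjusted p-value 4.16e-98) on the log2 scale of the authors' deposited table. Zfp600 (ENSMUSG00000066007) had a mean of 819.2 and stood at 3.77 (SE 0.19), a 13.6-fold difference with a 95% range of 10.6 to 17.6, in the authors' deposited table. Zfp978 had a mean of 739.6 and stood at 3.30 (SE 0.16), and Zfp980 had a mean of 2594 and stood at 2.85 (SE 0.14), in the authors' deposited table. Zfp979 was the exception, with the highest mean of the 5, 3049, and a value of 1.55 (SE 0.11) on the log2 scale of the authors' deposited table. Its stretch of promoter differed from that of Rex2 at a single position, as shown above. By the authors' deposited table, the median of the 5 was 3.27 and that of the 11 with the shorter start was 1.91. Zfp981, which is no member and lies between the blocks, has the shorter start and stood at 3.77 in the authors' deposited table, level with the highest of the 5. These kinds were set apart after the values were known, and no test was made of the difference.

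Among the 11 genes with the shorter start, Gm21411 was highest, with a mean of 552.0 and a value of 3.35 (SE 0.17) on the log2 scale of the authors' deposited table. Its longest coding sequence in GENCODE M21 is 136 codons with a KRAB box and 0 C2H2 fingers, so the label of a zinc-finger gene rests on its KRAB box alone. Zfp991 (2.80, SE 0.20), Zfp534 (2.41, SE 0.17), Zfp989 (2.22, SE 0.23) and Zfp982 (2.07, SE 0.22) followed on the log2 scale in the authors' deposited table. The lower 6 were Zfp986 (1.91, SE 0.57), Zfp987 (1.64, SE 0.20), Zfp268 (1.55, SE 0.26), Zfp988 (1.43, SE 0.12), Zfp985 (1.35, SE 0.15) and Zfp990 (1.12, SE 0.12) in the authors' deposited table. Zfp987 and Zfp534, which share the broken GC box, stood at 1.64 and 2.41 in the authors' deposited table. The 8 members with the intact box ran from 1.35 for Zfp985 to 3.77 for Zfp600 in the authors' deposited table, a range that holds both values.

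Zfp990 and Zfp979, with the highest means of the members, were not among those with the largest fold changes. Zfp990, with 13 fingers, had the highest mean of any member, 4767, and the lowest log2 fold change of the 16 zinc-finger genes, 1.12, in the authors' deposited table. Per kilobase of the longest GENCODE M21 transcript, its mean was 1566, followed by Zfp979 at 1175, Gm21411 at 736.0 and Zfp980 at 647.6, from the means in the authors' deposited table. On the log2 scale of the authors' deposited table, Gm21411 and Zfp980 stood at 3.35 and 2.85, and Zfp979 at 1.55. At the other end of the scale per kilobase were Zfp268 at 23.7 and Zfp986 at 11.8, again from the authors' deposited table. The 16 genes held 0 to 20 fingers, with the most in Zfp268 and 17 in Zfp600.

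**Figure D2:**
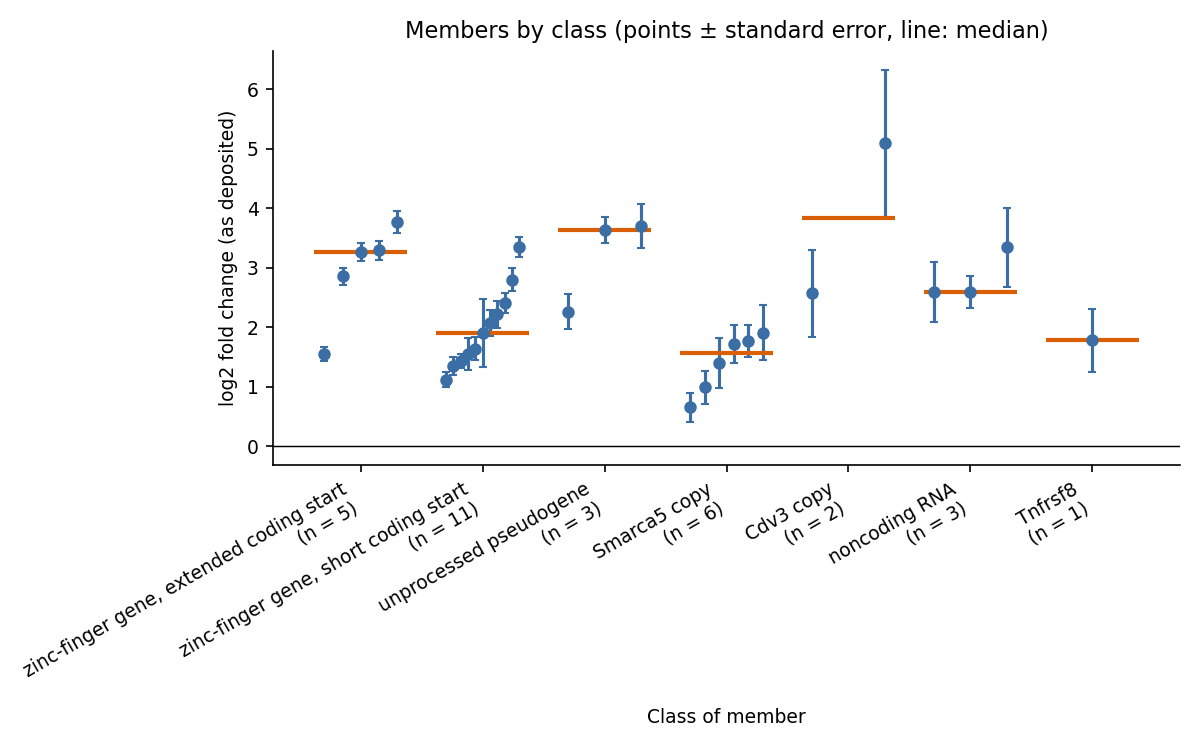
Log2 fold change as deposited (y axis) by class of member (x axis), with points for genes, bars for standard errors and a line for the median. The 6 Smarca5 copies lie between 0.65 and 1.91, and the 5 genes with the longer coding start have their median at 3.27.

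Pseudogenes made up 11 of the members. By shared sequence, 6 of them (Smarca5-ps, Gm13231, Gm13034, Gm13140, Gm13135 and Gm13136) are copies of Smarca5, which encodes the ISWI chromatin remodeler SNF2H, and 29.1% to 44.6% of their 50-base windows were also in Smarca5. These copies had log2 fold changes from 0.65 for Gm13135 to 1.91 for Gm13231 around a median of 1.56 by the authors' deposited table, all under 2. Smarca5 itself had a mean of 12950 and stood at 0.066 (SE 0.13, adjusted p-value 0.763) on the log2 scale of the authors' deposited table. Means of the copies ran from 38.4 to 180.0 in the authors' deposited table, far below that of Smarca5. Whether Smarca5 reads counted to the copies enter these values was not tested.

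Another 2, Gm13223 and Gm13148, share 50-base windows with Cdv3 and were among the weakest measured, with means of 11.5 and 14.8 in the authors' deposited table. Gm13223 had the highest log2 fold change of the members, 5.09, but also the widest standard error, 1.24, a fold of 34.1 with a 95% range of 6.32 to 183.7, in the authors' deposited table. Gm13148 stood at 2.57 (SE 0.73), and Cdv3 itself was at -0.30 (SE 0.13, adjusted p-value 0.0805), in the authors' deposited table.

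The remaining 3 are annotated as unprocessed pseudogenes, whereas the Smarca5 and Cdv3 copies are annotated as processed. Gm13147 stood at 3.70 (SE 0.37), Gm13230 at 3.63 (SE 0.22) and Znf41-ps at 2.26 (SE 0.29) in the authors' deposited table, within the range of the coding members and above every Smarca5 copy. Of Znf41-ps, 60.5% of the 150-base windows were also in Zfp991, a member at 2.80 in the authors' deposited table.

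The 3 noncoding RNAs were Platr16, a pluripotency-associated transcript, Gm16211, which lies between Zfp979 and Zfp534, and 4933438K21Rik, annotated as antisense. Gm16211 had a mean of 126.7 and stood at 2.60 (SE 0.27) in the authors' deposited table. Platr16 (mean 19.7) stood at 3.34 (SE 0.66) and 4933438K21Rik (mean 28.2) at 2.59 (SE 0.50) in the authors' deposited table. Platr16 overlaps Gm13230 on the same strand in GENCODE M21 and shares 27.5% of its 150-base windows with it, so their values cannot be told apart fully.

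Tnfrsf8 is the only member with no zinc-finger, pseudogene or noncoding character. It encodes CD30, a receptor of the tumour necrosis factor family, and had a mean of 30.7 and stood at 1.78 (SE 0.53, adjusted p-value 0.00374) on the log2 scale of the authors' deposited table. It stands at the edge of the first block, next to Tnfrsf1b, which was at -0.051 (SE 0.32, adjusted p-value 0.931) in the authors' deposited table. Cd3e, a T cell marker from a list of lymphoid genes, had a mean of 40.5 and stood at 2.45 (SE 0.40) in the authors' deposited table. The part of other cells in the Tnfrsf8 value was not tested.

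**Figure D3:**
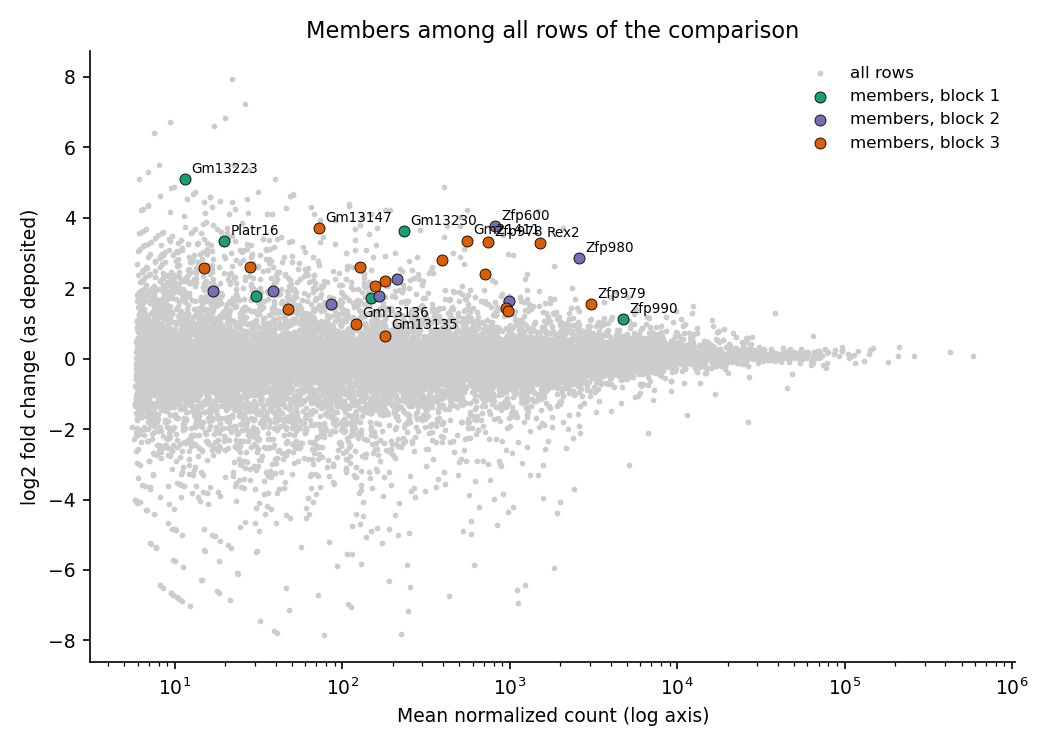
Log2 fold change as deposited (y axis) against mean normalized count (x axis, log scale) for all 17110 rows in grey and the 31 members in colour. The members span means from 11.5 to 4767, and Zfp990 and Zfp979 combine the highest means with low fold changes.

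Shared sequence limits how far the members can be read one by one. The share of a member's 150-base transcript windows, the read length of the libraries, that is found in no other gene of GENCODE M21 was between 32.2% and 100%, with a median of 75.5%. A partner with a shared window existed for 25 of the 31 members, and for 22 the largest partner was another gene of the region. Rex2 shared 54.8% of its windows with Zfp600, and Zfp600 shared 48.2% with Rex2. Zfp987 kept 45.8% unique windows, Zfp986 42.9%, Zfp600 43.7%, Rex2 39.3%, Zfp991 39.2% and Znf41-ps 32.2%. The submitters' processing notes list RSEM, a program that divides reads matching several genes by a model, but not its settings.

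Fold changes of members with unique and with shared sequence covered overlapping ranges. All windows were unique for 6 members: Zfp982, Zfp985, Gm16211, 4933438K21Rik, Tnfrsf8 and Gm13223. Their log2 fold changes ran from 1.35 to 5.09 around a median of 2.33 by the authors' deposited table. The 6 members under 50% ran from 1.64 to 3.77 around a median of 2.53 by the authors' deposited table. Of the 6 fully unique members, Gm13223, Tnfrsf8 and 4933438K21Rik had means under 50, and Gm13223 (SE 1.24) set the 5.09. Among coding zinc-finger genes, Zfp985 and Zfp982 (100%) and Zfp990 (99.5%) stood at 1.35, 2.07 and 1.12. Gm21411 (83.7%) stood at 3.35. Under 50%, Rex2, Zfp600 and Zfp991 stood at 3.27, 3.77 and 2.80, and Zfp986 and Zfp987 at 1.91 and 1.64. These are values of the authors' deposited table, and the part of shared reads in them was not tested. Over 120 pairs of zinc-finger members, proteins translated from the coding sequences were 55.5% to 98.0% identical, with a median of 75.1%. Only aligned residues count here, with gaps left out, so a short protein can score high against a longer one. The 98.0% is that of Zfp986 (401 residues) and Zfp988 (633 residues).

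**Figure D4:**
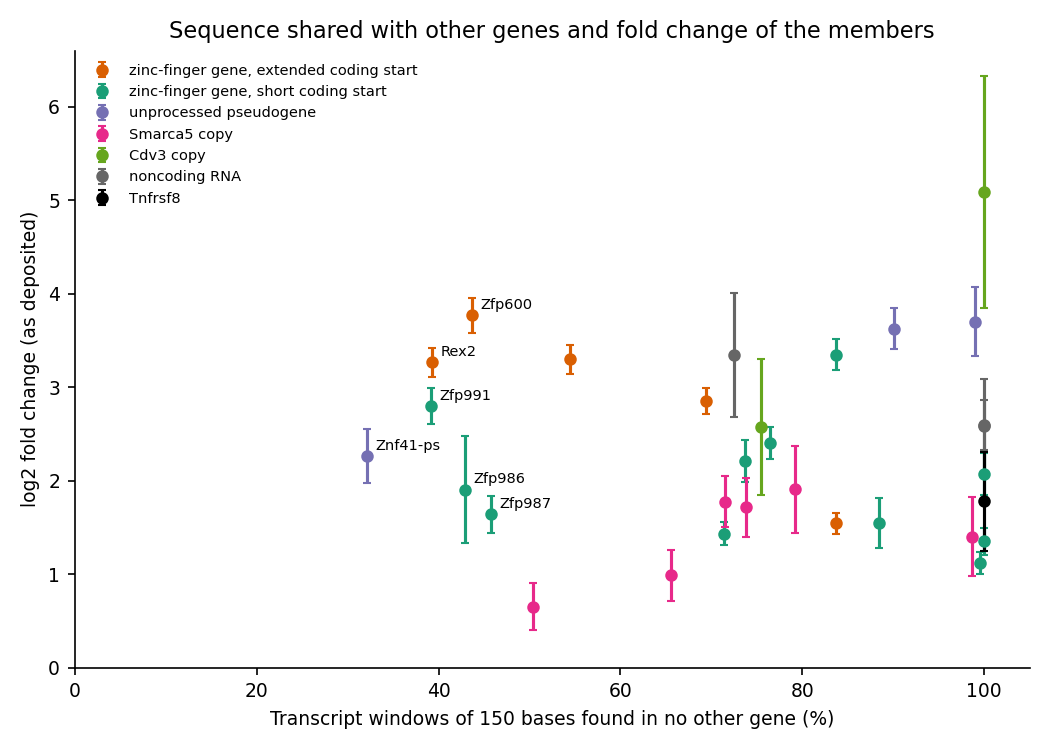
Log2 fold change as deposited (y axis) against the percentage of 150-base transcript windows found in no other gene (x axis) for the 31 members, coloured by class, with bars for the standard error. Members at 100% and members under 50% both reach values above 2.

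Between the outermost members lay 8 other rows of the table. The authors' deposited table calls 3 of these positive, and they are consecutive, while the share over all genes is 14.6%. Zfp981 stood at 3.77 (SE 0.19, adjusted p-value 5.97e-88), level with Zfp600, and Zfp992 at 1.33 (SE 0.14), in the authors' deposited table. Gm13241, a pseudogene that shares 50-base windows with Cdv3, stood at 1.55 (SE 0.37) in the authors' deposited table. Just outside the threshold was Zfp993 at 2.19 (SE 0.92, adjusted p-value 0.0556), and just inside was Gm13135 at 0.65 (SE 0.25, adjusted p-value 0.0323), in the authors' deposited table. Gm13237, a copy of Hmgb2 by its sequence with a mean of 1124, stood at -0.059 (SE 0.13) in the authors' deposited table. GENCODE M21 lists 92 genes in the span, and 53 of them, with no row used here, were not analysed here.

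On the far side of the third block the fold changes were lower. The members were chosen as consecutive positive genes, so a fall just beyond a block follows from that choice. Zfp984, with the shared promoter stretch, stood at 0.49 (SE 0.11, adjusted p-value 6.72e-05) in the authors' deposited table. It passes the limit on the adjusted p-value, but the authors' own mark, with its limit of 0.5, leaves it out. Zfp933, a 12-finger gene whose window lacks the stretch, stood at -0.082 (SE 0.28, adjusted p-value 0.869) in the authors' deposited table. Miip, the next gene, was called negative at -1.17 (SE 0.20) in the authors' deposited table. On the near side, Pramel13 was called positive at 2.06 (SE 0.13) with a mean of 521.0 and Dhrs3 negative at -1.31 (SE 0.50) in the authors' deposited table. Of the 10 rows flanking the region, 3 were called positive, with Zfp984 among them, and 2 negative in the authors' deposited table. The shares over all genes were 14.6% positive and 15.9% negative.

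KRAB zinc-finger genes in the rest of the genome were compared as context. Outside the region, 223 rows had a KRAB box and 3 or more C2H2 fingers, and 63 of them (28.3%) were called positive and 12 negative in the authors' deposited table. The shares over all genes were 14.6% positive and 15.9% negative. The median of the 223 was 0.23 on the log2 scale of the authors' deposited table. They are not all such genes: Zfp708, Zfp58, Zfp13 and Zkscan17, from the list of KRAB zinc-finger genes below, are not among them. The pattern for the KRAB box matters here: another one, tried first, missed 5 of the 15 members with fingers, and the wider one was adopted after that had been seen. With the first pattern, 120 rows lay outside, 26 were called positive and 10 negative, and their median was 0.13, by the authors' deposited table. A log2 fold change over 2 was reached by 5 of these 223 in the authors' deposited table: Zfp951 on chromosome 5 (4.65), Zfp997 (3.76) and Zfp998 (3.36) on chromosome 13, and Gm14406 (2.27) and Gm14444 (2.05) on chromosome 2. These 5 were named after their values were seen. The chromosomes with the most such genes had medians of 0.28 (chromosome 7, 54 genes), 0.41 (chromosome 2, 40 genes), -0.021 (chromosome 17, 36 genes) and 0.19 (chromosome 13, 25 genes) in the authors' deposited table. The members were chosen for their fold changes, so this difference is not tested.

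**Figure D5:**
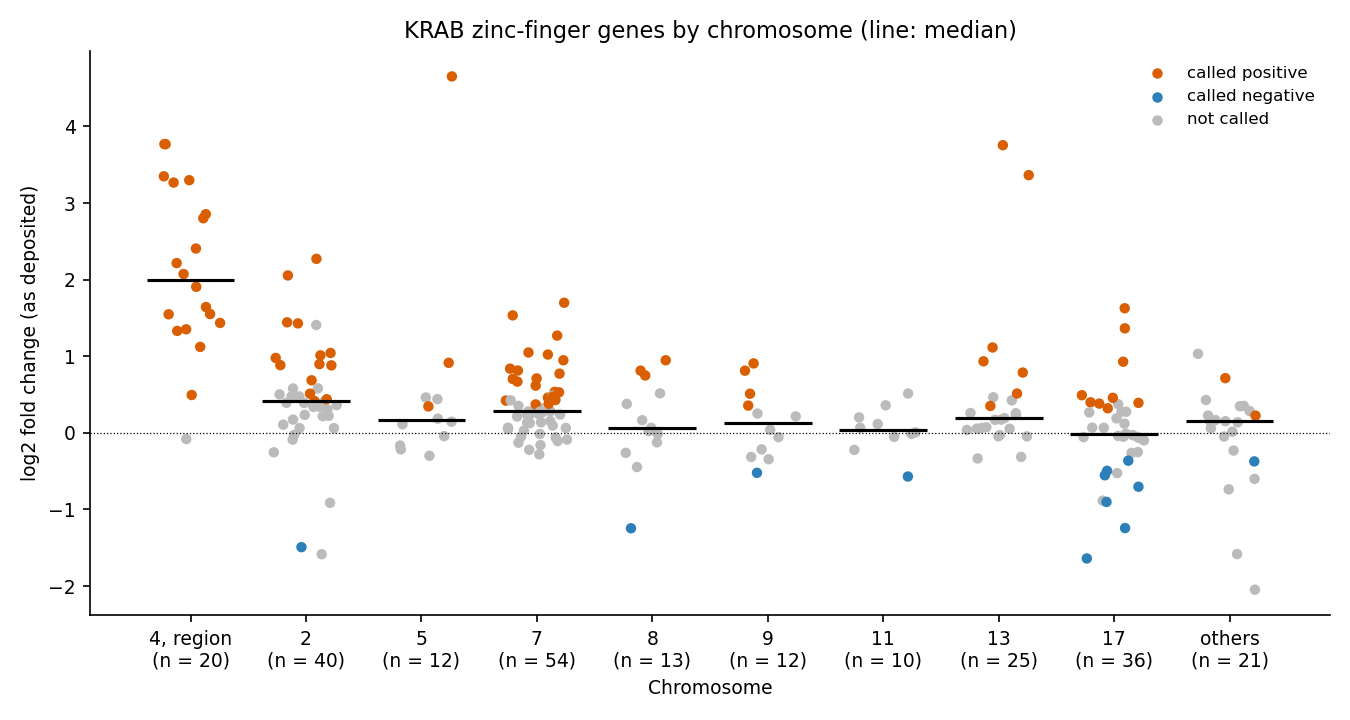
Log2 fold change as deposited (y axis) of genes with a KRAB box, by chromosome (x axis), with those of the chromosome 4 region first and a line for each median. Points are coloured by the call at an adjusted p-value under 0.05, and 5 genes outside the region exceed 2.

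Of 25 listed KRAB zinc-finger genes elsewhere with a described target, 24 had a row, and 8 of these were called positive and 2 negative by the authors' deposited table, around a median of 0.20, where 14.6% of all genes were called positive and 15.9% negative. Centring the authors' deposited table on ribosomal protein genes left 6 positive and 2 negative around 0.10. Zfp57, which protects imprinted methylation, stood at 1.36 (SE 0.13), and Zfp809, which silences retroviruses through their primer binding site, at 0.91 (SE 0.12), in the authors' deposited table. Zfp459 stood at 1.11 (SE 0.13) and Zfp961 at 0.95 (SE 0.13) in the authors' deposited table. Over the 420 other rows named as zinc-finger genes, 87 were called positive and 47 negative in the authors' deposited table. These counts were 64 and 62 once the median of ribosomal protein genes, 0.093, was subtracted. The share of all genes called after that subtraction is not given here, so nothing is read from the centred counts.

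The last list holds co-repressor genes of KRAB proteins, such as Trim28 and Setdb1, together with other genes of chromatin silencing. By the authors' deposited table, 11 of 28 listed genes were called positive and 3 negative, around a median of 0.17. Among all genes, 14.6% were called positive and 15.9% negative, or 30.5% in either direction. The listed genes had a median mean count of 5064 and a median standard error of 0.098. For all genes these were 394 and 0.18, so smaller fold changes can be called in the list. Centring the authors' deposited table on ribosomal protein genes gave 9 positive and 4 negative around 0.079. Shares over all genes after this centring are not given here. Trim28 (mean 64974) stood at 0.65 (SE 0.13, adjusted p-value 9.88e-06) and Setdb1 (mean 5100) at 0.20 (SE 0.10, adjusted p-value 0.143) in the authors' deposited table. The 4 smallest p-values of the list were those of Tasor, a subunit of the HUSH silencing complex, at 1.17 (SE 0.092), Chd3, a remodeler of the NuRD complex, at -1.36 (SE 0.14), Suv39h1, an H3K9 methyltransferase, at -0.90 (SE 0.095), and Pphln1, another HUSH subunit, at -1.29 (SE 0.14), in the authors' deposited table. Tasor and Pphln1, which belong to the same complex, had values of opposite sign.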

How the data were processed

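Polyadenylated RNA of 6 samples was sequenced by the authors as paired reads of 150 bases, per the labels' protocols. The submitters' processing notes name FastQC 0.12.1, Trimmomatic 0.39, STAR 2.7.11b, RSEM 1.3.3, DESeq2 1.45.3 and GRCm39, with no role or order. The deposited mean normalized count is a signal averaged over libraries by the authors, per the file headers. Fold changes with their standard errors were deposited by the authors as log2 values. The deposited Wald statistic is a score that was not used. The p-value and adjusted p-value (DESeq2) are used as deposited by the authors. No fit was run here.

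The 6 count columns match no sample label and were not used. The members and lists were chosen with earlier results of these data known. All members, called genes between them, the 4 list genes with the smallest p-values, Trim28 and Setdb1 are named by rule, and other genes were named after their values were seen. Gene order, biotypes, transcripts and coding sequences come from GENCODE M21 (GRCm38), matched by ID for 16795 of 17110 rows, and promoters from RefSeq (GRCm38.p6). A rule that splits runs at gaps over 1 Mb gave 1 run, so blocks are unbroken sequences of member rows. C2H2 fingers and KRAB boxes were found by residue patterns, and identity by global alignment (Biopython 1.88, Python 3.11.15). Protein identity leaves gaps out, and promoter identity counts them. The KRAB pattern was widened after a first version had missed 5 members. Window sharing was counted on both strands. The scripts were tested on simulated data. Alternatives were stricter limits, a minimum mean count of 50, other centres, wider flanks, members left out, the first KRAB pattern, local alignment and 50-base windows. Since the depth per library is unknown here, the authors' standard errors give the precision. The labels call the samples biological replicates. Classes of members, printed stretches and the measure of unique windows were chosen after the data had been seen. The lymphoid marker list is reported in part, since a result of it is not reported here.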

Additional observations from a re-analysis of the deposited data

How the results depend on the processing

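No paired analysis was possible because no column of counts could be matched to a sample and the comparison was deposited without values per sample. No replicate could be left out for the same reason. Of the 31 members called, 30 were called at an adjusted p-value under 0.01, 29 with an absolute log2 fold change over 1, 31 and 30 after centring on all genes and on ribosomal protein genes, and 23 had a mean count of at least 50. The member lost at 0.01 and by ribosomal centring was Gm13135 (0.56 after centring). The count fell to 17 with zinc-finger genes only (the 16 coding genes and Znf41-ps, by its name). It fell to 18 without members whose protein is 90% identical to another over aligned residues, and to 14 without the third block. Fewer members were left in each case, and the medians were then 2.22, 1.99 and 1.91. Of KRAB zinc-finger genes outside the region, 75 were called (63 positive, median 0.23) with the pattern used and 36 (26 positive, median 0.13) with the first pattern, which found 120 genes in place of 223. The planned omission of each run could not be made, since there was a single run. The comparison of patterns, leaving out blocks, leaving out members under 50% unique windows (25 left) and 50-base windows were chosen after seeing the data. An absolute log2 fold change over 1 left 3 of the 14 genes called on the co-repressor list, by the limit itself. It likewise left 2 zinc-finger genes with a described target of 10 and 40 other zinc-finger names of 134. On ribosomal centring the medians of these lists moved from 0.17 to 0.079, from 0.20 to 0.10 and from 0.091 to -0.0019, by the subtraction itself. The median share of unique windows fell from 75.5% to 33.4% with 50-base windows, since shorter windows match more often. The other alternatives moved the counts by less than 1.5 times. Members with means under 50 have standard errors up to 1.24.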

Other observations

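Genes of other families at the edges of the region also had large values. Fv1, a retroviral restriction gene next to Miip, stood at -3.59 (SE 0.91, adjusted p-value 0.000578) with a mean of 10.9 in the authors' deposited table. Pramel1, of the same family as Pramel13, was called positive at 0.87 (SE 0.31, adjusted p-value 0.0199), and Pramel12, beside it, stood at 0.059 (SE 0.15, adjusted p-value 0.815), in the authors' deposited table. These genes were chosen after their values were seen.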
